A study of Mus musculus with 34 samples.

Results

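The comparison set mesothelial cells of mouse epididymal fat against fibroblasts of the same fat pad. It used the 6 libraries titled as epididymal adipose mesothelial cells (3) or epididymal adipose fibroblasts (3), out of 34 libraries in 12 groups of sorted stromal cells in the series. Per the design text, cells from digested tissue that lacked CD45, CD31 and Epcam and carried podoplanin (PDPN) were sorted straight into TRIZOL. Mesothelial cells were the PDGFRA-negative part of that gate and fibroblasts the PDGFRA-positive part. All 6 libraries are labelled epididymal adipose tissue, visceral fat and GFP-negative, and hold polyadenylated RNA. No genotype, strain, age or treatment is labelled, and the labels do not say whether the libraries were made from different animals. The p-values therefore measure the spread between these samples, which may be technical.

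The mesothelium is a single sheet of flat cells that covers the organs and fat pads of the body cavities. It carries keratins and intercellular junctions like an epithelium but arises from mesoderm, and it makes the fluid-facing surface of the peritoneum. Fibroblasts lie beneath it, build the collagenous matrix of the fat pad and include the progenitors of adipocytes, which express PDGFRA.

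Total counts were 29196485, 32331875 and 34567653 in the mesothelial libraries and 28778822, 34617358 and 31597344 in the fibroblast libraries. Levels are given as CPM, counts scaled to a common library total after TMM scaling, in the order of replicates 1, 2 and 3. Differences are log2 fold changes ± SE, mesothelial over fibroblast, from edgeR's quasi-likelihood test. A gene was called higher or lower at a Benjamini-Hochberg adjusted p under 0.05 over all genes tested and a log2 fold change of 1 or more in size. In bulk samples of this kind, fewer cells that carry a transcript and less of the transcript per cell cannot be told apart. Mesothelial replicate 2 stood apart from the other mesothelial libraries. Ribosomal protein genes took 5.08% of its counts, against 2.68% and 2.79% in mesothelial replicates 1 and 3, and the long noncoding RNA AY036118 reached 31039 CPM, against 9469 and 8258 CPM. Log levels across genes correlated at 0.966 and 0.963 between it and the other mesothelial libraries, which correlated at 0.988 with each other.

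Of the genes behind the gate, only Pdgfra was called. Pdgfra (ENSMUSG00000029231, GRCm38 chr5:75152292-75198215) encodes the receptor that split the cells and had 13.8, 10.1 and 11.96 CPM in mesothelial libraries and 1132, 1189 and 1252 CPM in fibroblast libraries (log2 fold change -6.64 ± 0.22, adjusted p 1.0e-07). All 3 mesothelial libraries lay far below all 3 fibroblast libraries. Pdpn, which encodes podoplanin and was required in both gates, had 438, 754 and 359 CPM in mesothelial libraries and 346, 366 and 346 CPM in fibroblast libraries and was not called (log2 fold change 0.55 ± 0.26, adjusted p 0.12). The excluded proteins had low transcripts: Ptprc (CD45) had 1.31, 0.251 and 2.60 CPM in mesothelial libraries and 1.81, 0.581 and 1.82 CPM in fibroblast libraries, and Pecam1 (CD31) had 26.1, 10.003 and 16.4 CPM in mesothelial libraries and 28.6, 12.4 and 25.1 CPM in fibroblast libraries. Neither was called, with adjusted p of 0.96 and 0.54. Epcam was too low to be tested, with at most 0.753 CPM in a mesothelial library and 0.101 CPM in a fibroblast library.

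Of 19362 genes tested, 5286 were called (27.3%), 3058 higher (15.8%) and 2228 lower (11.5%) in mesothelial cells. The median log2 fold change of all genes tested was 0.06. The libraries of both groups did not overlap for 49.1% of the genes tested and for 98.9% of those called, so the separation of a called gene describes its values and adds little to its call. Differences were often large, with 596 genes higher and 429 genes lower by at least 16-fold. Scaling by library totals without TMM shifted the median of all genes to 0.40 and gave 4192 genes higher and 1582 lower, so that 72.6% of calls were higher, against 57.9% with TMM. Without mesothelial replicate 2, the counts were 4304 higher and 2277 lower, and by the adjusted p alone, with no minimum fold, 3387 were higher and 3532 lower.

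**Figure D1:**
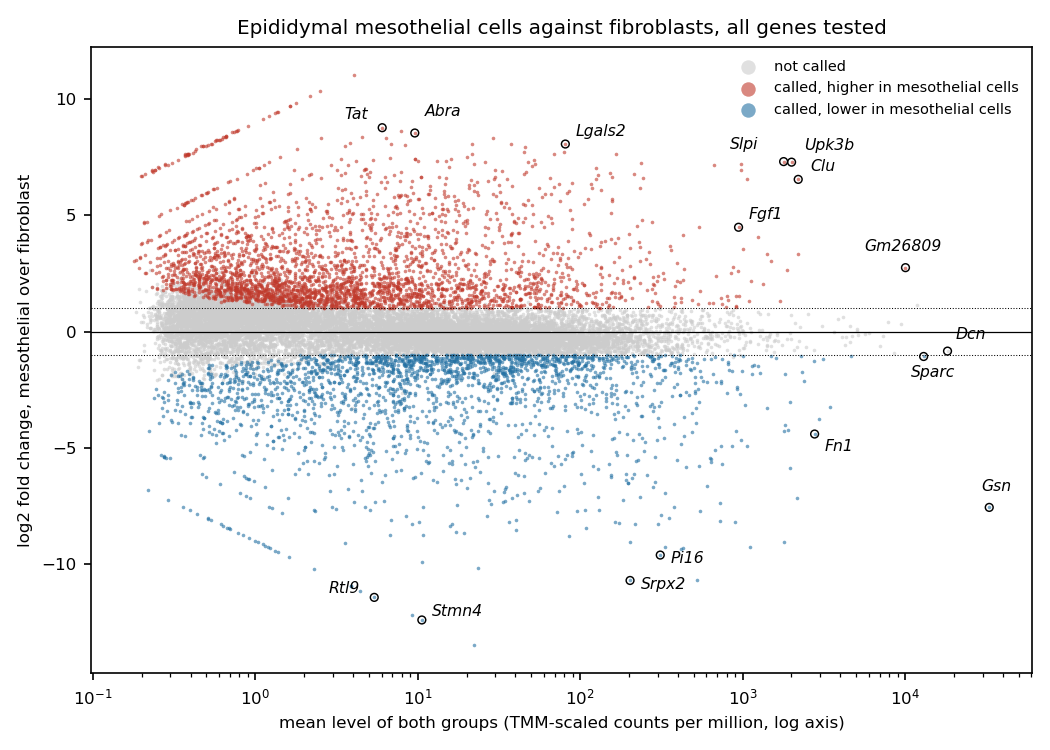
Log2 fold change, mesothelial over fibroblast, against the mean level of both groups on a log axis in CPM, 1 point per gene tested; dotted lines mark a log2 fold change of 1 in either direction. The 3058 genes called higher and 2228 called lower spread over the whole range of levels, and Gsn stands alone at the highest level among the genes called lower.

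The largest difference in level among genes called higher in mesothelial cells was that of the lincRNA Gm26809, with means of 17532 CPM in mesothelial cells and 2606 CPM in fibroblasts (log2 fold change 2.75). Leaving out genes with clone names, the 5 genes described next had the largest differences. Clu, which encodes the extracellular chaperone clusterin, had 4185, 4998 and 3887 CPM in mesothelial libraries and 56.1, 38.5 and 44.9 CPM in fibroblast libraries (log2 fold change 6.55 ± 0.25, adjusted p 1.1e-07). The uroplakin gene Upk3b, a known mesothelial marker, had 3846, 5014 and 3084 CPM in mesothelial libraries and 38.7, 19.3 and 18.4 CPM in fibroblast libraries (log2 fold change 7.29 ± 0.39, adjusted p 4.9e-07). Slpi, a secreted inhibitor of leukocyte proteases, had 2214, 6146 and 2316 CPM in mesothelial libraries and 32.5, 15.8 and 18.9 CPM in fibroblast libraries (log2 fold change 7.32 ± 0.53, adjusted p 3.4e-06). Mesothelial replicate 2 was far above the other mesothelial libraries for Slpi. Enpp2 encodes autotaxin, the enzyme that makes lysophosphatidic acid, and had 4122, 2871 and 4915 CPM in mesothelial libraries and 443, 360.1 and 383 CPM in fibroblast libraries (log2 fold change 3.33 ± 0.24, adjusted p 3.3e-06). Lgals1, which encodes galectin-1, had 2220.3, 5709 and 1815 CPM in mesothelial libraries and 538, 617 and 388 CPM in fibroblast libraries (log2 fold change 2.66 ± 0.41, adjusted p 6.7e-04). It was highest in mesothelial replicate 2, without which the log2 fold change was 2.05.

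By fold rather than level, the leading genes among those with at least 10 CPM were nearly silent in fibroblasts. Tat, which encodes the liver enzyme tyrosine aminotransferase, had 12.6, 10.5 and 13.1 CPM in mesothelial libraries and 0.0786, 0 and 0 CPM in fibroblast libraries (log2 fold change 8.78 ± 0.61, adjusted p 1.1e-06). Abra, an actin-binding protein known from striated muscle, had 17.9, 17.97 and 21.6 CPM in mesothelial libraries and 0.0786, 0.0683 and 0 CPM in fibroblast libraries (log2 fold change 8.55 ± 0.47, adjusted p 1.0e-07). Spock3, a testican proteoglycan, averaged 58.1 ± 2.48 CPM in mesothelial cells against 0.180 ± 0.0968 CPM in fibroblasts (log2 fold change 8.32 ± 0.32, adjusted p 1.0e-07). The zinc importer gene Slc39a4 averaged 75.4 ± 17.5 CPM in mesothelial cells against 0.274 ± 0.188 CPM in fibroblasts (log2 fold change 8.09 ± 0.39, adjusted p 2.5e-07). These 4 genes had a summed count of at most 23 over the 3 fibroblast libraries. Myl7, a myosin light chain of the atrium, the glycosyltransferase gene B3gnt7, the neurexophilin gene Nxph1, the galectin gene Lgals2, the protein disulfide isomerase gene Agr2 and Tmem125 had log2 fold changes between 8.04 and 8.63. Lgals2 was the highest of them, with 104, 287 and 93.8 CPM in mesothelial libraries and 1.02, 0.547 and 0.270 CPM in fibroblast libraries, and mesothelial replicate 2 again lay above the others; without that library its log2 fold change was 7.44. For Tat, Myl7 and B3gnt7, whose fibroblast counts summed to 2 or 3, the ratio of summed counts has a wide exact 95% interval: from 142 to 4252 for Tat, from 139 to 1979.9 for Myl7 and from 122 to 1731 for B3gnt7, covering counting error only.

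Among genes lower in mesothelial cells, Gsn led. Gsn (ENSMUSG00000026879, GRCm38 chr2:35256380-35307892) encodes the actin-severing protein gelsolin, which is also secreted into plasma, and had 408, 239.8 and 389 CPM in mesothelial libraries and 67559.7, 69282 and 60142 CPM in fibroblast libraries (log2 fold change -7.57 ± 0.31, adjusted p 1.3e-07). It had the highest mean level of all genes tested in fibroblasts. The follistatin-like gene Fstl1 had 663, 646 and 683 CPM in mesothelial libraries and 5958, 7047 and 5866 CPM in fibroblast libraries (log2 fold change -3.24 ± 0.18, adjusted p 6.9e-07), and the plasma glutathione peroxidase gene Gpx3 had 354, 550.0 and 319 CPM in mesothelial libraries and 5349, 5875 and 5177 CPM in fibroblast libraries (log2 fold change -3.74 ± 0.25, adjusted p 2.0e-06). Fn1, which encodes the matrix protein fibronectin, had 320.0, 176 and 251 CPM in mesothelial libraries and 5200.0, 5919 and 4799 CPM in fibroblast libraries (log2 fold change -4.41 ± 0.26, adjusted p 9.4e-07). Sparc, a collagen-binding matrix protein, was abundant in both groups, with 7202, 9455 and 8517 CPM in mesothelial libraries and 16773, 19472 and 16744 CPM in fibroblast libraries (log2 fold change -1.07 ± 0.19, adjusted p 0.0015). Its adjusted p stayed under 0.05 in all 14 alternatives, but the fold was below the minimum in 4 of them, with the smallest log2 fold change at -0.73 with library totals.

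By fold, 3 of the 10 leading genes had no count in any mesothelial library. Against a floor of 3 counts over the group, Stmn4, a stathmin, was at least 763-fold lower, Duoxa1, a maturation factor of dual oxidase, at least 670.2-fold lower and Rtl9, a gene derived from a retrotransposon, at least 391-fold lower. In fibroblast libraries, Stmn4 had 24.4, 24.6 and 14.7 CPM, Duoxa1 had 18.3, 21.3 and 15.9 CPM and Rtl9 had 11.3, 9.26 and 11.9 CPM. Srpx2, a secreted sushi-repeat protein, had 0.290, 0.0314 and 0.354 CPM in mesothelial libraries and 404, 398 and 416 CPM in fibroblast libraries (log2 fold change -10.71 ± 0.36, adjusted p 1.0e-07). The phospholipase gene Pla1a had 1.10, 0 and 0.756 CPM in mesothelial libraries and 1096, 1121 and 933 CPM in fibroblast libraries (log2 fold change -10.68 ± 0.56, adjusted p 4.3e-07). The peptidase inhibitor gene Pi16, a marker of adventitial fibroblasts, had 0.870, 0.533 and 0.922 CPM in mesothelial libraries and 475, 916 and 477 CPM in fibroblast libraries (log2 fold change -9.62 ± 0.41, adjusted p 1.7e-07). Inmt, an indolethylamine methyltransferase, and Cilp, a cartilage matrix protein, fell by 9.34 and 9.31 on the log2 scale. Ptx3, a soluble pattern recognition molecule, had 2 counts over the mesothelial libraries and 26.8, 13.9 and 23.4 CPM in fibroblasts, a ratio of summed counts with an exact 95% interval from 318 to 9494.

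Genes that mark mesothelium were higher as a block. Of 16 markers, 15 were tested and all 15 were called higher, with a median log2 fold change of 6.97 beside 0.06 for all genes. Calb2, the calretinin gene, had no count in any of the 6 libraries. Msln, which encodes the surface glycoprotein mesothelin, had 2072, 2476 and 1762 CPM in mesothelial libraries and 34.6, 14.3 and 17.98 CPM in fibroblast libraries (log2 fold change 6.56 ± 0.38, adjusted p 7.4e-07). Gpm6a, a membrane glycoprotein, had 2002, 1891 and 1934 CPM in mesothelial libraries and 17.4, 11.1 and 17.9 CPM in fibroblast libraries (log2 fold change 6.97 ± 0.26, adjusted p 1.0e-07), and the basonuclin gene Bnc1 had 85.0, 104 and 79.6 CPM in mesothelial libraries and 0.471, 0.205 and 0.574 CPM in fibroblast libraries (log2 fold change 7.74 ± 0.31, adjusted p 1.3e-07). Wt1, the Wilms tumour transcription factor, had the smallest difference among the markers, with 147, 124 and 222 CPM in mesothelial libraries and 63.1, 37.6 and 67.3 CPM in fibroblast libraries (log2 fold change 1.55 ± 0.28, adjusted p 0.0017), and was thus well expressed in fibroblasts too. Summed over the list, the markers reached 12044 to 17951 CPM in mesothelial libraries and 170 to 263 CPM in fibroblast libraries.

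Keratins form the intermediate filaments of epithelia, and those of simple epithelia were higher in mesothelial cells. Of 16 keratin genes, 8 were tested, 5 of these were called higher and 1 lower, with a median of 5.78, which was 3.53 over 10 tested genes without fibroblast replicate 2 and 3.74 without fibroblast replicate 3. Of the 5, Krt7, Krt8, Krt18 and Krt19 are also on the mesothelial marker list. Krt19 had 1256, 1816 and 905 CPM in mesothelial libraries and 14.3, 7.28 and 6.04 CPM in fibroblast libraries (log2 fold change 7.18 ± 0.43, adjusted p 9.6e-07) and was the most abundant. Krt7, Krt8 and Krt18, also of simple epithelia, averaged 231 ± 92.2, 255 ± 86.4 and 249.8 ± 75.4 CPM in mesothelial cells (mean ± SD, n = 3), while the highest of their means in fibroblasts was 2.84 CPM, of Krt7. Krt14, a keratin of basal cells, had 28.7, 60.6 and 13.9 CPM in mesothelial libraries and 1.85, 0.581 and 0.439 CPM in fibroblast libraries (log2 fold change 5.21 ± 0.65, adjusted p 1.6e-04). Krt20 went the other way at a low level, with 0.261, 0 and 0.0236 CPM in mesothelial libraries and 4.05, 5.40 and 4.05 CPM in fibroblast libraries (log2 fold change -5.55 ± 0.65, adjusted p 4.5e-05). Keratins of stratified epithelia, Krt4, Krt6a, Krt13 and Krt16, had at most 3 counts over the mesothelial libraries.

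Promoter windows of 3 genes higher in mesothelial cells and of 1 lower are shown, as examples of genes with large differences; they were picked after their values were seen. Each is the 250 bases before the start of the RefSeq gene on GRCm38.p6, 5′ to 3′ on the strand of the gene, with motif letters in capitals. Upk3b lies at chr5:136038246-136038495 on the plus strand, Krt8 at chr15:102004343-102004592 on the minus strand, Krt18 at chr15:102027966-102028215 on the plus strand and Pi16 at chr17:29318632-29318881 on the plus strand.
Upk3b: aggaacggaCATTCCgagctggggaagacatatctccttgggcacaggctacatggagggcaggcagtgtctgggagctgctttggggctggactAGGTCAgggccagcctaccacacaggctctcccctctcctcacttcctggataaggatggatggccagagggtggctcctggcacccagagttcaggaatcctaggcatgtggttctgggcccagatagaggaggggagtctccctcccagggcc
Krt8: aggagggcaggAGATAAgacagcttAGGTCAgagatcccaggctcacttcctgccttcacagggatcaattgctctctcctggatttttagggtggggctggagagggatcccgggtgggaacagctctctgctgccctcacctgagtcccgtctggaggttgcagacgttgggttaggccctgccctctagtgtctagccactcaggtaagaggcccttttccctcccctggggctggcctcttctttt
Krt18: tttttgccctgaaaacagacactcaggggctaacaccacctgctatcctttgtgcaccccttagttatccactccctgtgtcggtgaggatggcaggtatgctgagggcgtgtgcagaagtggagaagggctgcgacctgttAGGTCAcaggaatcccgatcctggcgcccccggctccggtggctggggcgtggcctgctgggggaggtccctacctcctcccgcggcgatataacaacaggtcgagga
Pi16: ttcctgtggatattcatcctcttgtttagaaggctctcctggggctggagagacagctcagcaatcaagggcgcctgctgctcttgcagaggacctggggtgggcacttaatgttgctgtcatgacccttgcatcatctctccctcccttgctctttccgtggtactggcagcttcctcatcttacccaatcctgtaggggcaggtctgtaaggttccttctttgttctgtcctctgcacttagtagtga
Both strands were searched for 6 motifs: AGATAA of GATA factors, GGAATG of TEAD factors, TATAAA of the TATA box, GGGCGG of the GC box, TGANTCA of AP-1 and AGGTCA, the half-site of nuclear receptors. Upk3b held GGAATG, read on the other strand as CATTCC, 241 bases and AGGTCA 155 bases before the start. Krt8 held AGATAA 239 bases and AGGTCA 225 bases before it, and Krt18 held AGGTCA 108 bases before it. Pi16 held none of the 6, and no 2 matches shared a base. Of 27025 RefSeq windows of this length, 13.8% held AGGTCA, 12.6% GGAATG, 10.3% AGATAA, 12.97% TATAAA, 32.9% GGGCGG and 6.87% TGANTCA, so the matches are a description of these letters only.

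Junction and polarity genes were mostly higher in mesothelial cells. Of 37 genes, 32 were tested, 23 were higher, 2 lower and 7 not called, with a median of 3.33. Among tight junction genes, the pore- and barrier-forming claudins Cldn15, Cldn10, Cldn1 and Cldn3 were higher. Cldn15 had 705, 846 and 558 CPM in mesothelial libraries and 90.5, 79.8 and 104 CPM in fibroblast libraries (log2 fold change 2.94 ± 0.21, adjusted p 3.4e-06), and Cldn10 had 191, 328 and 182 CPM in mesothelial libraries and 3.34, 4.30 and 2.16 CPM in fibroblast libraries (log2 fold change 6.16 ± 0.35, adjusted p 7.1e-07). The junctional adhesion molecule gene F11r had 450.5, 506 and 435 CPM in mesothelial libraries and 20.9, 15.2 and 13.9 CPM in fibroblast libraries (log2 fold change 4.80 ± 0.22, adjusted p 2.4e-07), and the junction scaffold gene Cgn, cingulin, had 101, 70.6 and 89.0 CPM in mesothelial libraries and 2.71, 1.298 and 1.75 CPM in fibroblast libraries (log2 fold change 5.51 ± 0.29, adjusted p 4.6e-07). No library of either group crossed into the range of the other for these genes. Among cadherins, Cdh11 averaged 244 ± 3.995 CPM in mesothelial cells against 19.1 ± 2.14 CPM in fibroblasts (log2 fold change 3.68 ± 0.18, adjusted p 2.8e-07) and Cdh3, P-cadherin, 59.7 ± 11.9 CPM in mesothelial cells against 0.589 ± 0.195 CPM in fibroblasts (log2 fold change 6.67 ± 0.31, adjusted p 2.5e-07). Cdh1, the E-cadherin of most epithelia, had only 2.03, 1.41 and 1.02 CPM in mesothelial libraries and 0.0393, 0.888 and 0 CPM in fibroblast libraries and was not called (log2 fold change 2.19 ± 0.79, adjusted p 0.053). Nectin1 and the desmosomal gene Pkp1 were lower, with log2 fold changes of -2.90 ± 0.36 and -3.55 ± 0.62. Jup, which encodes plakoglobin, and Pard3, a polarity scaffold, were not called, at 0.76 ± 0.18 and -0.07 ± 0.20.

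**Figure D2:**
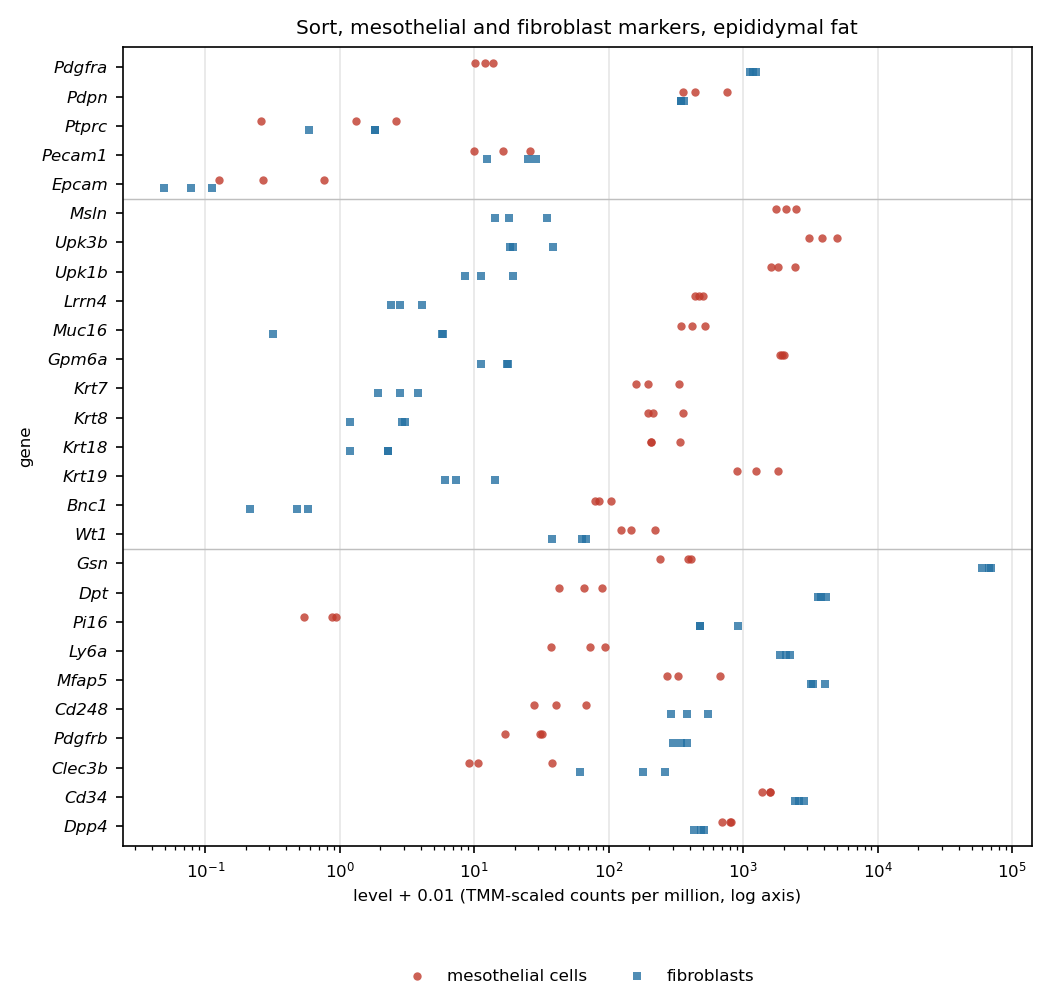
Levels of sort markers (top), mesothelial markers (middle) and fibroblast markers (bottom) in each of the 6 libraries, in TMM-scaled CPM plus 0.01 on a log axis; circles are mesothelial libraries and squares fibroblast libraries. The middle block lies to the right for mesothelial cells, with Wt1 the closest, and the bottom block lies to the left except for Dpp4, with Cd34 close.

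Fibroblast markers were mostly lower. All 14 were tested, 12 were lower and 2 not called, with a median of -3.14. Dpt, which encodes the matrix protein dermatopontin, had 65.0, 89.7 and 42.5 CPM in mesothelial libraries and 3812, 4117 and 3626 CPM in fibroblast libraries (log2 fold change -5.87 ± 0.31, adjusted p 4.3e-07). Ly6a, the stem cell antigen Sca-1, had 72.7, 93.4 and 37.4 CPM in mesothelial libraries and 2067, 2218 and 1878 CPM in fibroblast libraries (log2 fold change -4.92 ± 0.34, adjusted p 2.3e-06), and the ectonucleotidase gene Entpd2 had 120.1, 112 and 117 CPM in mesothelial libraries and 915, 1029 and 942 CPM in fibroblast libraries (log2 fold change -3.05 ± 0.17, adjusted p 5.8e-07). Pdgfrb, the second PDGF receptor and not used by the gate, had 30.7, 16.9 and 32.1 CPM in mesothelial libraries and 299, 347 and 379.9 CPM in fibroblast libraries (log2 fold change -3.68 ± 0.27, adjusted p 3.4e-06). Each of these fell without overlap. Cd34 and Dpp4, often used to find fat progenitors, had high levels in both cell types. Cd34 had 1583, 1587 and 1386 CPM in mesothelial libraries and 2619.9, 2854 and 2441 CPM in fibroblast libraries (log2 fold change -0.79 ± 0.17, adjusted p 0.0045) and Dpp4 had 807, 701 and 796 CPM in mesothelial libraries and 431, 508 and 486 CPM in fibroblast libraries (log2 fold change 0.69 ± 0.16, adjusted p 0.0082); both differed at an adjusted p under 0.05 but by less than the minimum fold, and Dpp4 was the higher in mesothelial cells.

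Transcription factors that act on epithelial or mesenchymal state split by direction. Of 23 genes, 16 were tested, 5 were higher, 7 lower and 4 not called, with a median of -0.49. That median was -0.90 without mesothelial replicate 2 and -0.06 without fibroblast replicate 1, and its highest value over all alternatives was 0.15. The mesenchymal factors Prrx1, Zeb1, Zeb2, Snai1, Snai2, Twist2 and Prrx2 made up all 7 that were lower. Prrx1 had 8.97, 7.97 and 9.76 CPM in mesothelial libraries and 77.6, 94.8 and 75.2 CPM in fibroblast libraries (log2 fold change -3.21 ± 0.19, adjusted p 9.7e-07), and Zeb1, a repressor of epithelial genes, had 40.2, 36.8 and 43.8 CPM in mesothelial libraries and 153, 169 and 189.7 CPM in fibroblast libraries (log2 fold change -2.08 ± 0.17, adjusted p 8.3e-06). Zeb1 still averaged 40.3 CPM in mesothelial cells. Those that were higher included Bnc1, Esrp2, Grhl1 and Klf5, of which all but Bnc1 were low. Bnc1 is also on the mesothelial marker list. Esrp2, a splicing regulator of epithelia, had 1.68, 1.29 and 0.922 CPM in mesothelial cells and no count in fibroblasts, at least 35.7-fold higher against a floor of 3 counts over the group. Grhl2, Grhl3, Ovol1, Ovol2 and Esrp1, further epithelial regulators, were too low to be tested. Twist1 and Klf4 were not called, with log2 fold changes of -0.0038 ± 0.39 and -0.40 ± 0.18.

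Factors that pattern body regions and the coelomic lining also differed. Of 31 genes, 24 were tested, 9 were higher, 5 lower and 10 not called, with a median of 0.73. Isl1, a LIM homeodomain factor, had 105, 107 and 102 CPM in mesothelial libraries and 1.296, 0.0683 and 0.776 CPM in fibroblast libraries (log2 fold change 7.23 ± 0.45, adjusted p 1.3e-06). Gata6, known from peritoneal macrophages and mesothelium, had 82.8, 88.4 and 82.8 CPM in mesothelial libraries and 17.7, 24.8 and 26.4 CPM in fibroblast libraries (log2 fold change 1.88 ± 0.19, adjusted p 3.8e-05); its span overlaps the opposite-strand transcript 1010001N08Rik, at 20.7 CPM in mesothelial cells and 1.21 CPM in fibroblasts. Its relatives Gata4 and Gata5 were higher too but low, at means of 2.58 and 15.5 CPM in mesothelial cells against 0.0602 and 0.270 CPM in fibroblasts. Osr1, an odd-skipped factor of intermediate mesoderm, had 362, 499 and 433 CPM in mesothelial libraries and 120.2, 156 and 90.1 CPM in fibroblast libraries (log2 fold change 1.82 ± 0.23, adjusted p 1.7e-04). Osr2, its paralogue, went the other way, with 1.16, 0.408 and 0.969 CPM in mesothelial libraries and 16.03, 19.9 and 14.04 CPM in fibroblast libraries (log2 fold change -4.27 ± 0.36, adjusted p 8.6e-06). Tcf21, a factor of visceral fibroblasts and fat progenitors, had 1.33, 1.599 and 1.73 CPM in mesothelial libraries and 177, 165 and 131 CPM in fibroblast libraries (log2 fold change -6.66 ± 0.24, adjusted p 1.0e-07), and the nuclear receptor gene Nr2f1 fell by 5.11 on the log2 scale. Meis1, a homeodomain cofactor, was not called, at -0.0039 ± 0.18.

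Several genes of the sarcomere, the contractile unit of striated muscle, were found in mesothelial cells. Of 24 genes, 15 were tested, 6 were higher, 4 lower and 5 not called, with a median of 0.64. That median was 0.28 without mesothelial replicate 2 and 2.06 without fibroblast replicate 2, and with a filter of 1 CPM, which left 10 genes tested, it was 4.08 with 1 gene lower. Myl7 had 9.34, 33.1 and 4.73 CPM in mesothelial libraries and 0.0786, 0 and 0.0337 CPM in fibroblast libraries (log2 fold change 8.63 ± 1.10, adjusted p 5.4e-05). The myosin-binding protein gene Mybpc2 had 35.9, 28.8 and 25.0 CPM in mesothelial libraries and 0.314, 0.239 and 0 CPM in fibroblast libraries (log2 fold change 7.36 ± 0.46, adjusted p 8.0e-07), and Ldb3, a Z-disc protein, had 12.7, 15.4 and 13.8 CPM in mesothelial libraries and 1.06, 1.54 and 0.776 CPM in fibroblast libraries (log2 fold change 3.63 ± 0.31, adjusted p 1.1e-05). Myl7 was highest in mesothelial replicate 2. Ttn, which encodes the giant protein titin, had 1.65, 1.29 and 48.5 CPM in mesothelial libraries and 0.550, 0.717 and 1.48 CPM in fibroblast libraries (log2 fold change 4.22 ± 1.39, adjusted p 0.042). Its groups overlapped, mesothelial replicate 3 held nearly all of its counts, and without that library the log2 fold change was 0.66 ± 0.52 (adjusted p 0.37). The heavy chains of cardiac muscle were almost absent, with 0 counts of Myh7 in all 6 libraries and at most 7 counts of Myh6 over a group. Acta1, Tnnt1, Tnnt3 and Tnni2 were lower, with at most 3.26 CPM in any library, of Acta1. Tnni2 lost its call in 6 of 13 alternatives, Tnnt1 in 2 of 14 and Acta1 in 1 of 13, and 2 of the list were lower without fibroblast replicate 2 or without mesothelial replicate 1.

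Genes that move water, ions and protons were higher where they were called. Of 24 genes, 20 were tested, 11 were higher, 0 lower and 9 not called, with a median of 1.67. Atp1b1, a subunit of the sodium pump, had 92.2, 166 and 85.6 CPM in mesothelial libraries and 5.97, 5.84 and 3.31 CPM in fibroblast libraries (log2 fold change 4.51 ± 0.34, adjusted p 4.6e-06). Slc9a3r1, the scaffold NHERF1 of apical transporters, had 286, 357 and 262 CPM in mesothelial libraries and 8.48, 11.4 and 6.38 CPM in fibroblast libraries (log2 fold change 5.11 ± 0.27, adjusted p 4.1e-07). The chloride channel gene Cftr had 8.56, 7.49 and 11.7 CPM in mesothelial libraries and 0.0786, 0 and 0.135 CPM in fibroblast libraries (log2 fold change 6.95 ± 0.55, adjusted p 8.4e-07), and Scnn1a, a subunit of the epithelial sodium channel, had 10.9, 12.6 and 9.69 CPM in mesothelial libraries and 0.236, 0.102 and 0.202 CPM in fibroblast libraries (log2 fold change 5.93 ± 0.40, adjusted p 1.3e-06). Its partner subunits Scnn1b and Scnn1g were too low to be tested. Aqp5, a water channel of glands, had 6.56, 13.9 and 3.99 CPM in mesothelial cells and no count in fibroblasts, at least 217-fold higher against a floor of 3 counts over the group. Aqp1, the water channel known from mesothelium and endothelium, had 23.4, 22.6 and 14.6 CPM in mesothelial libraries and 16.3, 7.82 and 3.37 CPM in fibroblast libraries and was not called (log2 fold change 1.15 ± 0.45, adjusted p 0.075).

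**Figure D3:**
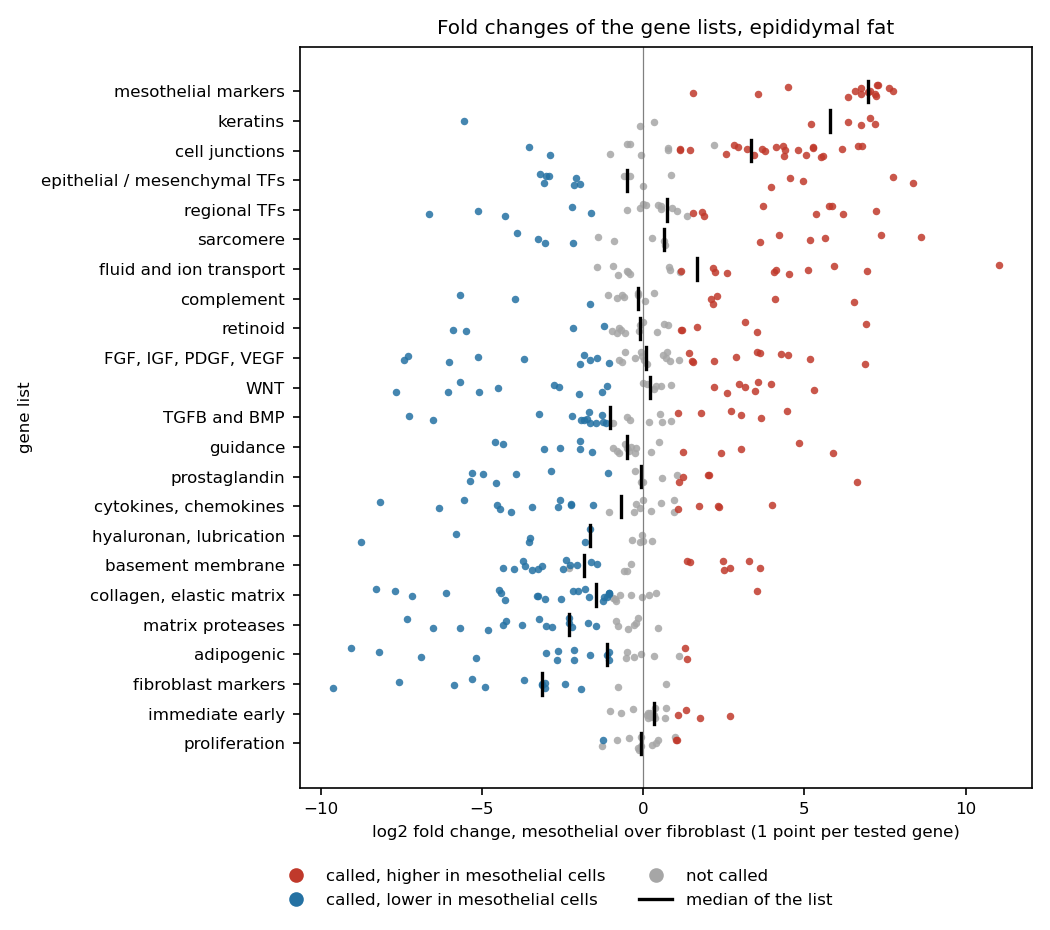
Log2 fold change, mesothelial over fibroblast, of every tested gene in 23 lists, with a bar at the median of each list. Mesothelial markers, keratins and junction genes sit mostly to the right, while fibroblast markers, proteases, collagens and adipogenic genes sit mostly to the left, and the signalling lists spread to both sides.

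Matrix genes were largely lower in mesothelial cells, but several abundant members differed by less than the minimum fold. Of 30 genes of fibrillar and elastic matrix, all tested, 1 was higher, 21 lower and 8 not called, with a median of -1.46. Postn, which encodes periostin, had 10.2, 0.753 and 4.51 CPM in mesothelial libraries and 1116, 1180.4 and 957 CPM in fibroblast libraries (log2 fold change -7.71 ± 0.70, adjusted p 1.5e-05). The small leucine-rich proteoglycan gene Lum had 22.5, 29.7 and 36.8 CPM in mesothelial libraries and 4192, 4304 and 4468 CPM in fibroblast libraries (log2 fold change -7.18 ± 0.27, adjusted p 1.0e-07). Pcolce2, an enhancer of procollagen processing, had 1.19, 1.03 and 1.91 CPM in mesothelial libraries and 413, 533 and 359 CPM in fibroblast libraries (log2 fold change -8.27 ± 0.31, adjusted p 1.0e-07). All were without overlap. Col3a1 and Col1a1, main fibrillar collagens, were not called, with log2 fold changes of -0.92 ± 0.24 (adjusted p 0.013) and -0.72 ± 0.30 (adjusted p 0.092). Mesothelial levels of Col3a1 were still 6154, 5031 and 6533 CPM. Dcn, decorin, was among the most abundant transcripts of both, with 11089, 15405 and 12763 CPM in mesothelial libraries and 23344, 22952 and 24084 CPM in fibroblast libraries (log2 fold change -0.84 ± 0.19, adjusted p 0.0066). Fmod, fibromodulin, was the only member higher, with 1997, 1609.8 and 1921 CPM in mesothelial libraries and 117, 157 and 202 CPM in fibroblast libraries (log2 fold change 3.54 ± 0.24, adjusted p 2.2e-06).

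Genes of the basement membrane, the sheet of matrix beneath an epithelium, went in both directions. Of 24 genes, all tested, 7 were higher, 13 lower and 4 not called, with a median of -1.83. Among laminin chains, Lamc3 had 116, 99.4 and 104 CPM in mesothelial libraries and 12.8, 11.3 and 8.94 CPM in fibroblast libraries (log2 fold change 3.28 ± 0.20, adjusted p 1.1e-06) and Lama5 had 8.30, 7.24 and 5.53 CPM in mesothelial libraries and 0.707, 0.547 and 0.472 CPM in fibroblast libraries (log2 fold change 3.61 ± 0.38, adjusted p 4.4e-05), while Lamc1 had 63.8, 70.1 and 57.8 CPM in mesothelial libraries and 800.0, 883 and 736 CPM in fibroblast libraries (log2 fold change -3.66 ± 0.18, adjusted p 3.5e-07). Lama3 was also higher, and Lama2, Lama4, Lamb1 and Lamb3 were lower. The nidogens, which link laminin to collagen IV, split: Nid1 had 218, 179 and 235 CPM in mesothelial libraries and 3374, 3897 and 3002 CPM in fibroblast libraries (log2 fold change -4.02 ± 0.21, adjusted p 4.1e-07), and Nid2 had 706, 458 and 672 CPM in mesothelial libraries and 236, 223 and 209 CPM in fibroblast libraries (log2 fold change 1.46 ± 0.20, adjusted p 2.9e-04). Collagen IV chains split likewise, with Col4a1 and Col4a2 lower at log2 fold changes of -3.74 ± 0.25 and -3.45 ± 0.25 and Col4a6 higher at 1.35 ± 0.21. Agrn and Col18a1, heparan sulfate proteoglycans, were higher by 2.51 ± 0.20 and 2.49 ± 0.26. Col4a1 and Col4a2 lie head to head and overlap in the annotation, so reads may have been split between them.

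Genes of matrix proteases and of hyaluronan were lower in mesothelial cells where they were called. Of 23 matrix proteases and inhibitors, 22 were tested, 0 were higher, 15 lower and 7 not called, with a median of -2.31. Adam12, a membrane metalloprotease, had 1.22, 0 and 0.0473 CPM in mesothelial libraries and 62.7, 68.4 and 67.8 CPM in fibroblast libraries (log2 fold change -7.33 ± 0.64, adjusted p 1.3e-05). Serpine2, the inhibitor protease nexin-1, had 5.66, 4.48 and 2.55 CPM in mesothelial libraries and 419, 384 and 362 CPM in fibroblast libraries (log2 fold change -6.53 ± 0.31, adjusted p 2.5e-07), and the gelatinase gene Mmp2 had 29.7, 22.05 and 33.9 CPM in mesothelial libraries and 811, 955 and 667 CPM in fibroblast libraries (log2 fold change -4.82 ± 0.25, adjusted p 3.7e-07). Timp3 and Timp2, tissue inhibitors of metalloproteases, were not called, at -0.77 ± 0.17 and -0.30 ± 0.25. Hyaluronan genes were lower in 6 of 11 tested (13 listed), with 0 higher and a median of -1.63. Has2, a hyaluronan synthase, had 0.0580, 0.0314 and 0.0473 CPM in mesothelial libraries and 26.3, 15.4 and 22.8 CPM in fibroblast libraries (log2 fold change -8.75 ± 0.42, adjusted p 6.8e-08); it overlaps its antisense transcript Has2os, which fell too. Has1, another synthase, had 216, 59.3 and 203 CPM in mesothelial libraries and 806, 268 and 414 CPM in fibroblast libraries (log2 fold change -1.63 ± 0.49, adjusted p 0.026), with replicate 2 the lowest library of each group and no overlap between the groups. Vcan and Tnfaip6, which bind hyaluronan, fell by 3.53 and 5.81 on the log2 scale. Prg4, the lubricant lubricin, was low in both groups, at means of 2.99 CPM in mesothelial cells and 2.45 CPM in fibroblasts.

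More adipogenic genes were lower than higher in mesothelial cells. Of 22 genes, 21 were tested, 2 were higher, 13 lower and 6 not called, with a median of -1.12. Lpl, lipoprotein lipase, had 6.41, 2.04 and 9.50 CPM in mesothelial libraries and 1777, 1858 and 1708 CPM in fibroblast libraries (log2 fold change -8.20 ± 0.51, adjusted p 1.1e-06). The progenitor factor gene Ebf2 had 1.54, 0.125 and 0.567 CPM in mesothelial libraries and 380.2, 396 and 433 CPM in fibroblast libraries (log2 fold change -9.07 ± 0.49, adjusted p 5.4e-07), and Ebf1 had 12.5, 4.74 and 9.48 CPM in mesothelial libraries and 324, 339 and 309.5 CPM in fibroblast libraries (log2 fold change -5.18 ± 0.33, adjusted p 1.5e-06). G0s2, an inhibitor of lipolysis, had 0.696, 0.596 and 0.425 CPM in mesothelial libraries and 77.8, 76.7 and 49.0 CPM in fibroblast libraries (log2 fold change -6.90 ± 0.32, adjusted p 2.4e-07). Pparg, the master regulator of fat cells, was low in fibroblasts and lower still in mesothelial cells, with 2.38, 0.0314 and 2.60 CPM in mesothelial libraries and 12.8, 13.02 and 15.7 CPM in fibroblast libraries (log2 fold change -3.00 ± 0.60, adjusted p 0.0031). Cebpb and Klf15, at low levels, were the 2 higher members, with adjusted p of 0.047 and 0.047; each lost its call in 5 of 14 alternatives.

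Retinoid genes went both ways, as did the enzymes that make retinoic acid. Of 24 genes, 21 were tested, 6 were higher, 4 lower and 11 not called, with a median of -0.10. Aldh1a2 had 144, 163 and 149.9 CPM in mesothelial libraries and 21.8, 16.1 and 13.2 CPM in fibroblast libraries (log2 fold change 3.17 ± 0.22, adjusted p 2.3e-06) and Aldh1a1 had 1090.1, 1079 and 966 CPM in mesothelial libraries and 439, 421 and 500.0 CPM in fibroblast libraries (log2 fold change 1.21 ± 0.17, adjusted p 3.0e-04). The third retinaldehyde dehydrogenase, Aldh1a3, had 5.25, 2.70 and 4.66 CPM in mesothelial libraries and 222, 266 and 269 CPM in fibroblast libraries (log2 fold change -5.90 ± 0.28, adjusted p 2.4e-07). None of the 3 overlapped between the groups. Upstream, Dhrs9, which oxidises retinol, had 51.7, 81.1 and 65.2 CPM in mesothelial libraries and 0.471, 0.410 and 0.742 CPM in fibroblast libraries (log2 fold change 6.91 ± 0.32, adjusted p 2.4e-07), whereas Adh1, another retinol dehydrogenase, had 15.2, 24.0 and 11.9 CPM in mesothelial libraries and 698, 873 and 751 CPM in fibroblast libraries (log2 fold change -5.51 ± 0.30, adjusted p 4.9e-07). Stra6, the retinol uptake receptor, was higher by 3.52 ± 0.47 at a mean of 13.6 CPM. The nuclear receptors Rara, Rarb, Rarg, Rxra, Rxrb and Rxrg were not called.

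Growth factors and their receptors went both ways. Of 34 genes of the FGF, IGF, PDGF, VEGF and related families, all tested, 11 were higher, 10 lower and 13 not called, with a median of 0.08. Fgf1, a ligand of all FGF receptors, had 1933, 1637 and 1858 CPM in mesothelial libraries and 89.3, 72.8 and 79.7 CPM in fibroblast libraries (log2 fold change 4.49 ± 0.20, adjusted p 1.8e-07), and Fgf9 had 36.9, 58.0 and 61.8 CPM in mesothelial libraries and 0.786, 2.19 and 1.28 CPM in fibroblast libraries (log2 fold change 5.18 ± 0.36, adjusted p 2.6e-06). The ligands of the epithelial receptor isoform, Fgf7 and Fgf10, were lower. Fgf7 had 0.377, 0 and 0.827 CPM in mesothelial libraries and 57.5, 64.2 and 84.2 CPM in fibroblast libraries (log2 fold change -7.29 ± 0.50, adjusted p 2.5e-06) and Fgf10 had 0.493, 0.2195 and 0.260 CPM in mesothelial libraries and 55.6, 56.3 and 56.9 CPM in fibroblast libraries (log2 fold change -7.43 ± 0.29, adjusted p 1.2e-07). Hgf, hepatocyte growth factor, had 0.0870, 0.0941 and 0.425 CPM in mesothelial libraries and 14.3, 12.2 and 16.8 CPM in fibroblast libraries (log2 fold change -6.02 ± 0.45, adjusted p 3.6e-06), while its receptor Met had 32.3, 40.4 and 34.6 CPM in mesothelial libraries and 5.19, 4.89 and 4.42 CPM in fibroblast libraries (log2 fold change 2.89 ± 0.21, adjusted p 3.3e-06). Pdgfa, a ligand of PDGFRA, had 14.8, 24.0 and 14.7 CPM in mesothelial libraries and 1.61, 1.26 and 1.52 CPM in fibroblast libraries (log2 fold change 3.61 ± 0.32, adjusted p 1.3e-05). None of these genes overlapped between the groups. Igf1 was lower at -1.96 ± 0.21, and the binding proteins Igfbp2, Igfbp4, Igfbp5 and Igfbp6 were higher at 6.86 ± 0.68, 2.18 ± 0.39, 3.52 ± 0.26 and 1.52 ± 0.31.

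Of 30 genes of the TGFB and BMP pathway, 26 were tested, 6 were higher, 13 lower and 7 not called, with a median of -1.03. Bmp4 had 93.5, 107 and 105 CPM in mesothelial libraries and 15.3, 13.9 and 17.4 CPM in fibroblast libraries (log2 fold change 2.72 ± 0.18, adjusted p 1.8e-06). The BMP antagonist gene Chrdl1 had 434, 375 and 435 CPM in mesothelial libraries and 27.5, 54.6 and 70.5 CPM in fibroblast libraries (log2 fold change 3.03 ± 0.31, adjusted p 3.8e-05). Gdf10, also called BMP3b, was lower, with 2.03, 3.57 and 1.37 CPM in mesothelial libraries and 228, 245 and 150.4 CPM in fibroblast libraries (log2 fold change -6.50 ± 0.37, adjusted p 7.0e-07). Ltbp1, which holds latent TGFB in the matrix, had 4.93, 0.2195 and 2.03 CPM in mesothelial libraries and 336, 364 and 400.3 CPM in fibroblast libraries (log2 fold change -7.25 ± 0.65, adjusted p 1.5e-05). These 4 genes had no overlap between groups. The receptor gene Tgfbr2 was lower at -1.45 ± 0.18, and Tgfb3 and Tgfbr1 were not called, at 0.54 ± 0.21 and -0.41 ± 0.27.

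WNT ligands and modulators were found on both sides. Of 29 genes, 24 were tested, 8 were higher, 10 lower and 6 not called, with a median of 0.22. Wnt2b had 66.2, 86.8 and 59.6 CPM in mesothelial libraries and 1.26, 2.39 and 1.69 CPM in fibroblast libraries (log2 fold change 5.30 ± 0.29, adjusted p 4.9e-07), and Rspo1, an R-spondin that amplifies WNT signals, had 99.0, 159.7 and 76.6 CPM in mesothelial libraries and 9.66, 11.2 and 7.73 CPM in fibroblast libraries (log2 fold change 3.55 ± 0.30, adjusted p 9.4e-06). Its relative Rspo3 had 0.667, 0.721 and 0.449 CPM in mesothelial libraries and 19.4, 25.0 and 18.1 CPM in fibroblast libraries (log2 fold change -5.10 ± 0.31, adjusted p 1.2e-06). Dkk3, of the dickkopf family, had 313, 251 and 308 CPM in mesothelial libraries and 18.1, 19.9 and 17.7 CPM in fibroblast libraries (log2 fold change 3.97 ± 0.19, adjusted p 2.5e-07). Each of these was separated by group, and Rspo1 is also on the mesothelial marker list. The secreted frizzled-related genes Sfrp4 and Sfrp1 were lower, with Sfrp4 at 0.812, 1.19 and 1.77 CPM in mesothelial libraries and 284, 264 and 236 CPM in fibroblast libraries (log2 fold change -7.67 ± 0.29, adjusted p 1.0e-07), and Sfrp2 was not called (log2 fold change 0.11 ± 0.28, adjusted p 0.78). Wnt5a was lower at -1.99 ± 0.19, and Axin2, a common WNT target, was not called, at 0.88 ± 0.25.

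**Figure D4:**
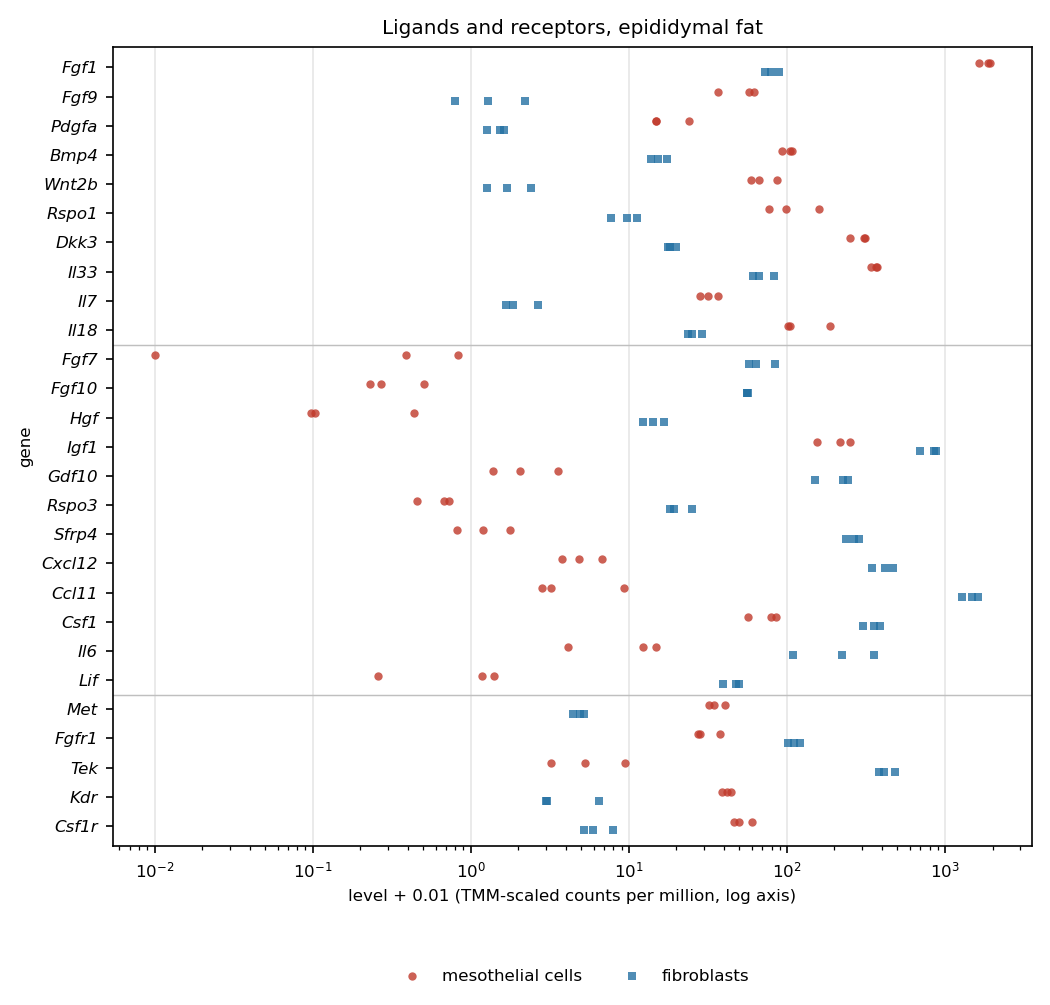
Levels of ligands higher (top) and lower (middle) in mesothelial cells and of 5 receptors (bottom) in each of the 6 libraries, in TMM-scaled CPM plus 0.01 on a log axis; circles are mesothelial libraries and squares fibroblast libraries. Circles lie to the right of squares for the ligands at the top and to the left for those in the middle, and the point at the left edge is a library with no count.

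Cytokines and chemokines were lower more often than higher. Of 29 genes, 26 were tested, 5 were higher, 12 lower and 9 not called, with a median of -0.69. Cxcl12, which holds leukocytes and progenitors in tissues, had 6.76, 3.76 and 4.82 CPM in mesothelial libraries and 419.5, 469 and 343 CPM in fibroblast libraries (log2 fold change -6.32 ± 0.28, adjusted p 1.9e-07). The eotaxin gene Ccl11 had 9.34, 2.82 and 3.21 CPM in mesothelial libraries and 1607, 1284 and 1484 CPM in fibroblast libraries (log2 fold change -8.15 ± 0.49, adjusted p 9.4e-07). Csf1, the macrophage growth factor, had 85.4, 56.4 and 79.5 CPM in mesothelial libraries and 354, 388 and 301 CPM in fibroblast libraries (log2 fold change -2.23 ± 0.21, adjusted p 1.9e-05). Il6 and Lif, ligands of gp130, were lower, with Il6 at 12.3, 4.14 and 15.0 CPM in mesothelial libraries and 355, 109 and 223 CPM in fibroblast libraries (log2 fold change -4.44 ± 0.53, adjusted p 1.1e-04) and Lif at -5.56 ± 0.39. Among the 5 that were higher, the alarmin Il33 had 365, 374 and 342 CPM in mesothelial libraries and 60.9, 82.4 and 66.7 CPM in fibroblast libraries (log2 fold change 2.37 ± 0.18, adjusted p 4.7e-06). Il7, a survival factor of lymphocytes, had 28.1, 31.8 and 36.7 CPM in mesothelial libraries and 2.67, 1.84 and 1.65 CPM in fibroblast libraries (log2 fold change 3.98 ± 0.26, adjusted p 1.8e-06), and Il18 had 104, 186 and 102 CPM in mesothelial libraries and 23.8, 29.1 and 25.0 CPM in fibroblast libraries (log2 fold change 2.33 ± 0.26, adjusted p 6.4e-05). The groups were separate for all of these. Cxcl10 and Csf2 completed the 5. Csf2 lost its call in 5 of 14 alternatives, and 3 of the list were higher without fibroblast replicate 3 or without mesothelial replicate 1. Mesothelial replicate 2 was the lowest of the mesothelial libraries for Ccl2, Ccl7, Cxcl1, Cxcl10 and Il6.

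Complement, a protein cascade that marks and lyses microbes, had abundant transcripts in both cell types. Of 18 genes, 16 were tested, 5 were higher, 3 lower and 8 not called, with a median of -0.16. C3, the central component, had 12238, 8895 and 10556 CPM in mesothelial libraries and 7967, 8868 and 8336 CPM in fibroblast libraries and was not called (log2 fold change 0.33 ± 0.19, adjusted p 0.19). C2 had 2338, 2456 and 2257 CPM in mesothelial libraries and 130.4, 142 and 142 CPM in fibroblast libraries (log2 fold change 4.09 ± 0.18, adjusted p 1.9e-07), and Cfb, factor B, had 2015, 1873 and 1616 CPM in mesothelial libraries and 399, 394 and 425 CPM in fibroblast libraries (log2 fold change 2.18 ± 0.17, adjusted p 6.4e-06). Cd55, a brake on complement at the cell surface, had 53.1, 47.2 and 37.4 CPM in mesothelial libraries and 659, 749.5 and 735 CPM in fibroblast libraries (log2 fold change -3.96 ± 0.20, adjusted p 3.7e-07), and vitronectin, Vtn, had 4.29, 2.01 and 2.41 CPM in mesothelial libraries and 155, 138 and 156 CPM in fibroblast libraries (log2 fold change -5.69 ± 0.29, adjusted p 3.7e-07). These 4 did not overlap. Cd59a, which blocks the membrane attack complex, was higher at 2.10 ± 0.35, and Serping1, the C1 inhibitor, was not called, at -0.58 ± 0.18.

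Of 18 prostaglandin genes, 17 were tested, 5 were higher, 7 lower and 5 not called, with a median of -0.07. Ptgs1 and Ptgs2, the cyclooxygenases, were not called, at 0.58 ± 0.17 and -0.01 ± 0.46. The synthases downstream differed. Ptges, which makes prostaglandin E2, had 18.6, 10.3 and 10.5 CPM in mesothelial libraries and 301, 311 and 318 CPM in fibroblast libraries (log2 fold change -4.56 ± 0.27, adjusted p 8.2e-07). Ptgis, prostacyclin synthase, had 899.7, 1174 and 702 CPM in mesothelial libraries and 391, 444 and 341 CPM in fibroblast libraries (log2 fold change 1.24 ± 0.22, adjusted p 0.0015), and Ptgds, prostaglandin D synthase, had 28.4, 41.4 and 18.6 CPM in mesothelial libraries and 0.118, 0.581 and 0.169 CPM in fibroblast libraries (log2 fold change 6.62 ± 0.50, adjusted p 4.5e-06). The degrading enzyme Hpgd had 6.01, 13.1 and 6.14 CPM in mesothelial libraries and 317, 331 and 345 CPM in fibroblast libraries (log2 fold change -5.30 ± 0.33, adjusted p 1.1e-06). The prostacyclin receptor Ptgir and the prostaglandin E receptors Ptger2 and Ptger4 were lower, and Ptger3 was higher, at 2.05 ± 0.39.

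Of 24 guidance genes, 23 were tested, 5 were higher, 7 lower and 11 not called, with a median of -0.50. Plxna4, a semaphorin receptor, had 49.3, 56.2 and 55.3 CPM in mesothelial libraries and 2.44, 1.57 and 1.69 CPM in fibroblast libraries (log2 fold change 4.83 ± 0.24, adjusted p 3.1e-07), and the ligand Sema3a had 82.0, 60.8 and 93.0 CPM in mesothelial libraries and 8.996, 8.98 and 10.999 CPM in fibroblast libraries (log2 fold change 3.03 ± 0.22, adjusted p 3.4e-06). The co-receptor Nrp1 was lower, with 36.5, 19.0 and 20.5 CPM in mesothelial libraries and 199.8, 212 and 237 CPM in fibroblast libraries (log2 fold change -3.09 ± 0.27, adjusted p 1.1e-05). Slit2, Slit3 and Robo1, a ligand-receptor system of cell repulsion, were also lower, at -2.59 ± 0.27, -1.95 ± 0.19 and -4.58 ± 0.47.

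Markers of other cell types that the gate could hold were mostly low, with exceptions such as Tek in fibroblasts and Acta2 in mesothelial cells. Of 18 leukocyte markers, 11 were tested, 3 were higher and 0 lower. Over all genes tested, 27.3% were called, and the shares of the leukocyte, endothelial and mural lists were near that. The leukocyte sum ran from 128 to 246 CPM in mesothelial libraries and from 48.7 to 110 CPM in fibroblast libraries. Csf1r, the CSF1 receptor, had 60.3, 46.5 and 50.03 CPM in mesothelial libraries and 5.97, 5.23 and 7.93 CPM in fibroblast libraries (log2 fold change 3.04 ± 0.23, adjusted p 4.1e-06). The macrophage genes Adgre1 and C1qa were low, with Adgre1 at most 3.39 CPM in a mesothelial library and C1qa at most 0.874 CPM. The macrophage genes Cd68 and Lyz2 had the highest mean levels among uncalled members of the list, with log2 fold changes of 0.66 and -0.62. H2-Ab1 and Cd74, of MHC class II, were higher at 1.83 ± 0.27 and 1.28 ± 0.37, and Cd74 lost its call in 6 of 14 alternatives. Endothelial genes summed to 85.5 to 142 CPM in mesothelial libraries and 459 to 568 CPM in fibroblast libraries, of which Tek made up most, with 380.0, 413 and 485 CPM in fibroblasts. Of 12 tested, 2 were higher (Kdr and Lyve1) and 1 lower (Tek). Kdr, a VEGF receptor, had 44.0, 41.9 and 38.9 CPM in mesothelial libraries and 6.48, 3.01 and 3.04 CPM in fibroblast libraries (log2 fold change 3.33 ± 0.30, adjusted p 1.6e-05), whereas Cdh5, VE-cadherin, had at most 8.85 CPM in a mesothelial library and 10.9 CPM in a fibroblast library.

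Mural genes summed to 599 to 843 CPM in mesothelial libraries and 146 to 233 CPM in fibroblast libraries. Of 11 tested, 3 were higher (Acta2, Tagln and Kcnj8) and 0 lower. Acta2, smooth muscle actin, had 454, 589 and 374 CPM in mesothelial libraries and 43.0, 102 and 46.3 CPM in fibroblast libraries (log2 fold change 2.89 ± 0.34, adjusted p 1.1e-04), while the pericyte marker Rgs5 had 12.6, 9.47 and 8.63 CPM in mesothelial libraries and 19.6, 11.3 and 15.8 CPM in fibroblast libraries and was not called (log2 fold change -0.60 ± 0.26, adjusted p 0.1). Schwann cell genes gave 1 higher and 3 lower of 6 tested, with sums of 101 to 106 CPM in mesothelial libraries and 319 to 364 CPM in fibroblast libraries; the defining factor Sox10 had 1 count over each group, and Mbp and Scn7a made up nearly all of the sums. Adipocyte genes gave 0 higher and 3 lower of 9 tested and summed to 110 to 127 CPM in mesothelial libraries and 195 to 283 CPM in fibroblast libraries, with Adipoq at most 1.73 CPM. Of those 3, Plin1 lost its call in 6 of 13 alternatives and Fabp4 in 5 of 14, and only 1 was lower without fibroblast replicate 1. Pancreatic acinar genes summed to 35.6 to 101 CPM in mesothelial libraries and 3.50 to 4.20 CPM in fibroblast libraries, of which Cela1 was most, and Prss2 and Cpa1 had at most 0.102 and 0.116 CPM. Erythroid genes gave 0 calls of 5 tested, with 0 at an unadjusted p under 0.05, and sums of 7.87 to 28.7 CPM in mesothelial libraries and 5.74 to 13.7 CPM in fibroblast libraries. Epididymis epithelium and testis genes gave 2 lower of 2 and 1 lower of 2 tested, and 3 untested epididymis genes, Lcn5, Spink8 and Adam7, were found mainly in replicate 2 of both groups. They had 7.65, 7.31 and 4.17 CPM in mesothelial replicate 2 and 0.752, 4.27 and 1.33 CPM in fibroblast replicate 2. The part of such cells in the results was not tested.

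Omentum and mesentery libraries were sorted by the same gates, so the epididymal difference was set against the mean of the differences there, over 18 libraries (3 per cell type and depot). Values in this comparison are on the scale of those 18 libraries. Of 22322 genes tested, 1275 (5.71%) had a different effect in epididymal fat, 706 with a higher (3.16%) and 569 with a lower (2.55%) log2 difference, with a median of 0.05 over all genes. Of 16 mesothelial markers 3 were among them, all with a higher difference (Gpm6a, Pkhd1l1 and Bnc1, by 1.71 ± 0.38, 2.35 ± 0.48 and 2.75 ± 0.52), and of 14 fibroblast markers 6 were. Dpt had a higher difference of 3.35 ± 0.46, and Pi16, Gsn, Dpp4, Thy1 and Mfap5 had a lower one, of -4.20 ± 0.40, -1.91 ± 0.26, -2.36 ± 0.22, -1.85 ± 0.42 and -2.02 ± 0.34. Set against the mesentery alone, none of the 3 mesothelial markers was called, with differences of -0.028 for Gpm6a, 0.34 for Pkhd1l1 and -0.28 for Bnc1, nor were Gsn (-1.02) and Mfap5 (-1.33). Without mesentery fibroblast replicate 1, Bnc1 also lost its call, at 1.56. Other marker genes were not called. Msln had effects of 6.54 ± 0.53 in epididymal fat, 6.80 ± 0.54 in omentum and 6.77 ± 0.53 in mesentery (adjusted p of the difference 0.81), Gata6 1.86 ± 0.26, 1.63 ± 0.25 and 1.85 ± 0.26 (0.86) and Cxcl12 -6.35 ± 0.53, -6.87 ± 0.54 and -5.83 ± 0.52 (0.99997). Upk3b, Wt1, Pdgfrb and Csf1 were not called either, at adjusted p of 0.093, 0.36, 0.067 and 0.12, which does not show that their effects are equal. Upk3b gained a call in 5 of 25 alternatives, Csf1 in 3, Pdgfrb in 2 and Wt1 in 1. The Wt1 effect was 1.53 ± 0.24 in epididymal fat, 0.01 ± 0.23 in omentum and 2.18 ± 0.24 in mesentery.

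**Figure D5:**
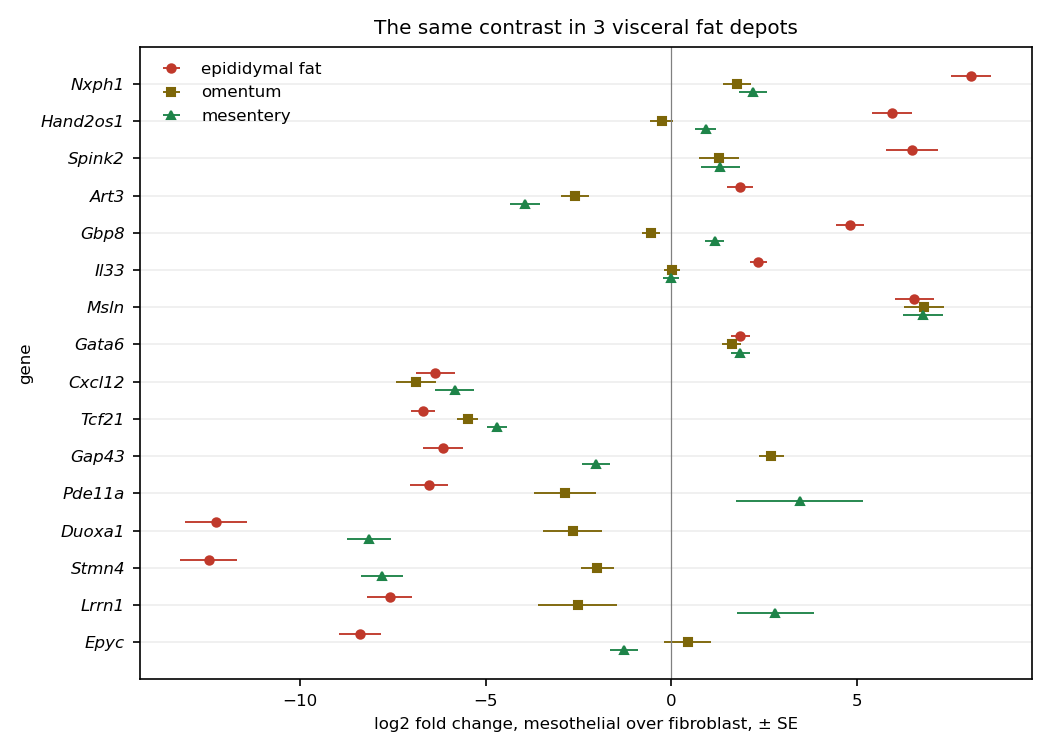
Log2 fold change, mesothelial over fibroblast, ± SE in epididymal fat (circles), omentum (squares) and mesentery (triangles) for 16 genes, 3 libraries per cell type and depot. The 3 depots lie close for Msln, Gata6 and Cxcl12, while epididymal fat lies to the right for Nxph1 and Il33 and to the left for Epyc, Gap43 and Tcf21.

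Il33 had an effect of 2.34 ± 0.23 in epididymal fat, 0.01 ± 0.22 in omentum and -0.01 ± 0.22 in mesentery (difference 2.34 ± 0.27, adjusted p 1.2e-05). Its means were 343 ± 19.5 and 67.8 ± 11.2 CPM in epididymal mesothelial cells and fibroblasts, 561 ± 100.1 and 556 ± 104 CPM in the omentum and 363 ± 118 and 366 ± 47.8 CPM in the mesentery. Epididymal fibroblasts had the lowest of these means. Nxph1 had effects above 0 in every depot, with 8.06 ± 0.55, 1.76 ± 0.38 and 2.20 ± 0.37 in epididymal fat, omentum and mesentery (difference 6.08 ± 0.65, adjusted p 2.3e-06). Art3, an ADP-ribosyltransferase whose span overlaps Cxcl10, had effects of opposite sign, with 1.84 ± 0.35, -2.58 ± 0.38 and -3.95 ± 0.40. Epyc, which encodes the proteoglycan epiphycan, had the largest lower difference, with effects of -8.38 ± 0.56, 0.44 ± 0.63 and -1.28 ± 0.38 (difference -7.96 ± 0.72, adjusted p 2.6e-07). Gap43, a growth cone protein, had -6.14 ± 0.54, 2.70 ± 0.33 and -2.03 ± 0.38. Tcf21 was lower in mesothelial cells of each depot, most in epididymal fat, with -6.68 ± 0.31, -5.48 ± 0.29 and -4.69 ± 0.28.

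Omentum fibroblast libraries held more mesothelial marker transcript than the other fibroblasts, with sums over the marker list of 863 to 1349 CPM, against 121 to 265 CPM in mesentery fibroblasts and, on the scale of the 6 libraries, 170 to 263 CPM in epididymal fibroblasts. Leukocyte markers summed to 944 to 1110 CPM in omentum mesothelial cells and 778 to 1965 CPM in mesentery mesothelial cells, above the 128 to 246 CPM in epididymal mesothelial cells. Pancreatic acinar genes summed to 53.1 to 2540.3 CPM in omentum mesothelial cells and 961 to 3980.4 CPM in omentum fibroblasts, and to 212 to 5455 CPM in mesentery mesothelial cells and 713 to 3755 CPM in mesentery fibroblasts. The lowest sums, 71.8 and 53.1 CPM in omentum mesothelial replicates 2 and 3, lay within the range of epididymal mesothelial cells. Set against the omentum alone, 2979 genes differed, and against the mesentery alone, 564. The part of these marker levels in the depot differences was not tested.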

How the data were processed

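RNA of sorted cells was sequenced, and the authors deposited whole-number read counts per gene for each library. Per the file headers these are reads that align uniquely to gene models; the submitters' processing notes name Salmon and GRCm38, and which step gave the counts, the annotation release and the use of strand are not given in the sources used here. Genes that overlap on opposite strands may therefore share reads. Counts were analysed with edgeR 4.0.16 (R 4.3.3): filterByExpr with a minimum count of 10, TMM scaling and the quasi-likelihood F-test, on the 6 epididymal libraries alone. The depot difference was fitted on 18 libraries. A call needed a Benjamini-Hochberg adjusted p under 0.05 over all genes tested and a log2 fold change of 1 or more in size. DESeq2 1.42.0, other scalings and filters, a replicate block and leaving out each library served as alternatives. The fits were tested on simulated data with 50 changed genes per size. The epididymal fit called 6 of 50 at 2-fold, which is the minimum for a call, 35 at 4-fold and 36 at 8-fold. The depot fit called 2, 26 and 35. False calls numbered 6 and 5. A gene that was not called may therefore still differ. The simulation changed a far smaller share of genes than the 27.3% and 5.71% called in the real epididymal and depot comparisons. Its rates of calls and false calls need not hold there. Ratios of counts carry exact 95% intervals, and floors are 3 counts per group; both cover counting error only.

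Genes named were the sort markers, the 10 called genes per direction with the largest fold and the 5 with the largest difference of mean CPM, the 6 per direction with the largest depot difference, and up to 4 called members per direction of each list with the smallest adjusted p, with uncalled members of high level. Leading genes needed a mean of at least 10 CPM, groups that did not overlap and a gene name other than a clone name. Further list members, and the genes whose promoters are shown, were named after their values were seen. Some genes that this rule names are not reported here. The members and lists were chosen with earlier results of these data known. Promoter windows came from RefSeq.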

Additional observations from a re-analysis of the deposited data

Results flagged for a closer look

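The genes below are those among the named genes whose mesothelial-fibroblast difference in epididymal fat departed from the mean of the same difference in omentum and mesentery, by the interaction term of edgeR's quasi-likelihood test over 18 libraries. Values are log2 differences ± SE with the adjusted p over 22322 genes. On the higher side were Nxph1 (6.08 ± 0.65, adjusted p 2.3e-06), Hand2os1 (5.61 ± 0.61, 2.3e-06), Spink2 (5.18 ± 0.86, 5.3e-04), Art3 (5.11 ± 0.45, 3.2e-07), Gbp8 (4.50 ± 0.43, 9.1e-07) and Il33 (2.34 ± 0.27, 1.2e-05).

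On the lower side were Epyc (-7.96 ± 0.72, adjusted p 2.6e-07), Lrrn1 (-7.72 ± 1.54, 0.0018), Stmn4 (-7.57 ± 1.91, 0.018), Duoxa1 (-6.86 ± 2.06, 0.044), Pde11a (-6.81 ± 1.31, 0.0017), Gap43 (-6.47 ± 0.62, 3.7e-07) and Tcf21 (-1.60 ± 0.33, 0.0049). Among the marker lists, those on the higher side were Gpm6a (1.71 ± 0.38, 0.0086), Pkhd1l1 (2.35 ± 0.48, 0.0042), Bnc1 (2.75 ± 0.52, 0.002) and Dpt (3.35 ± 0.46, 1.0e-04), and those on the lower side were Pi16 (-4.20 ± 0.40, 9.1e-07), Gsn (-1.91 ± 0.26, 7.7e-05), Dpp4 (-2.36 ± 0.22, 4.7e-07), Thy1 (-1.85 ± 0.42, 0.0094) and Mfap5 (-2.02 ± 0.34, 6.1e-04). Duoxa1 lost its call in 15 of 25 alternatives. Lrrn1, Stmn4 and Pde11a lost theirs in some, among them the omentum alone for Lrrn1 and Pde11a and the mesentery alone for Stmn4. Hand2os1 overlaps Hand2 on the opposite strand, Art3 overlaps Cxcl10 on the opposite strand, and Gbp8 overlaps its relatives Gbp9 and Gbp4 on the same strand, so their counts are uncertain.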

How the results depend on the processing

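Of 259 genes picked by the naming rule in the epididymal comparison, 230 kept their call or lack of one in all 14 alternatives. Of the others, 18 lost a call in some and 11 gained one in some, and 0 reversed. Further list members that were named after their values were seen, such as Ttn and Il6, are not in these counts. Of the 5286 genes called, 95.9% were also called by DESeq2, 98.6% with RLE size factors and 87.8% with library totals. Without a fold minimum, 3387 genes were higher and 3532 lower, which turns round the balance of calls. Leaving out 1 library moved the fold change of 38 of the 200 called genes picked by the rule by over 1.5 times. Of these, 33 had under 1 CPM in their lower group, and the other 5 were Lgals1 and Jund without mesothelial replicate 2, Ccl11 (-8.92) and Ltbp1 (-8.26) without mesothelial replicate 1, and Inmt (-8.73 without mesothelial replicate 2 and -10.09 without mesothelial replicate 3). The small medians of the retinoid, complement, prostaglandin, growth factor and proliferation lists changed sign in some alternatives, as did that of the epithelial and mesenchymal factors. So did the medians of the sort, leukocyte, endothelial, Schwann, erythroid, epididymis and testis markers. Leaving out each library in turn gave 4291 to 6581 calls, 2213 to 4304 higher and 2029 to 2277 lower.

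The depot difference moved more. The higher calls numbered 1189 with DESeq2. Without the filter on low counts there were 2022 calls, 1309 of them higher, and with library totals 246 genes were lower. Against the omentum alone there were 2979 calls (1911 higher, 1068 lower), and against the mesentery alone 564 (200 higher, 364 lower). There the differences of Gpm6a and Bnc1 reversed sign, to -0.028 and -0.28, and were not called. Leaving out each library gave 709 to 1595 calls, 343 to 1151 higher and 352 to 725 lower; the 709 came without epididymal fibroblast replicate 2 and the 1151 without epididymal mesothelial replicate 2. The cause of these shifts was not tested.

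With the replicate number as a block, 5797 genes were called in the epididymal comparison (3431 higher, 2366 lower) and 867 in the depot comparison (429 higher, 438 lower). Deviations of same-numbered epididymal libraries correlated at 0.08, 0.40 and 0.41, and those of differently numbered libraries at -0.39 to 0.18. Mesothelial replicates 2 and 3 correlated best with the fibroblast replicate of the same number, and mesothelial replicate 1 with fibroblast replicate 3. In the other depots of the depot comparison, same-numbered libraries correlated at -0.01, -0.30 and -0.10 (omentum) and at -0.02, -0.43 and -0.16 (mesentery). The labels do not state a pairing, and the numbers were not taken as one in the main fit. Whether same-numbered libraries share an origin was not tested. Genes below about 10 counts were left out by the filter and were not tested in the main fit. Without the filter, 39610 genes were tested and 5810 called, of which 4958 were also called with it.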

Other observations

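Some classes of noncoding genes were called higher more often than all genes tested, of which 15.8% were higher and 11.5% lower. Of 1182 lincRNA genes tested, 282 were higher (23.9%) and 68 lower, with a median log2 fold change of 0.69, and of 449 processed pseudogenes 102 were higher (22.7%) and 25 lower. Of 768 antisense genes, 146 were higher (19.0%) and 58 lower (7.55%), and of 155 miRNA genes 33 were higher (21.3%) and 3 lower (1.94%). The 1454 genes of the unclassified type TEC were near the share called higher, with 252 (17.3%). Only 36 of them were lower (2.48%), and their median was 0.63. Of 311 processed transcripts, 48 were higher (15.4%) and 31 lower (9.97%), and of 139 sense intronic genes 17 were higher (12.2%) and 6 lower (4.32%). Protein-coding genes were balanced, with 2098 higher and 1981 lower of 14469 and a median of -0.09. Mesothelial libraries had a count in 31681, 28158 and 33075 genes, and fibroblast libraries in 26205, 26112 and 28165 genes. Protein-coding genes took 91.2, 89.9 and 90.6% of counts in mesothelial libraries and 95.7, 95.9 and 96.0% in fibroblast libraries. The part of this library-wide difference in the noncoding calls was not tested. The lincRNA Gm26809 had 17461, 13270 and 21864 CPM in mesothelial libraries and 3037, 2145 and 2637 CPM in fibroblast libraries.

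Of 17 immediate early genes, which respond within minutes to stimulation and tissue handling, all tested, 4 were higher (Jund, Atf3, Ier3 and Dusp1) and 0 lower, with a median of 0.33 that was 0.77 without mesothelial replicate 2 and 0.09 without mesothelial replicate 3. Only 1 was higher without fibroblast replicate 3; Atf3 lost its call in 3 and Jund and Dusp1 in 2 of 14 alternatives each, and the log2 fold change of Jund, 1.76, was 1.15 without mesothelial replicate 2. Ier3 had 752, 511 and 1007 CPM in mesothelial libraries and 149, 93.5 and 109 CPM in fibroblast libraries (log2 fold change 2.69 ± 0.28, adjusted p 4.4e-05), while Fos had 5708, 3986 and 6209 CPM in mesothelial libraries and 5292, 4899 and 4349.5 CPM in fibroblast libraries and was not called (log2 fold change 0.13 ± 0.21, adjusted p 0.66). Of 14 proliferation genes, 2 were higher (Cdk1 and Mcm2) and 1 lower (Aurkb), each of which lost its call in some alternatives. The shares called in the immediate early and proliferation lists were near or below the 27.3% of all genes tested. Mki67 had 9.37, 4.64 and 8.48 CPM in mesothelial libraries and 7.97, 5.43 and 3.85 CPM in fibroblast libraries and was not called (log2 fold change 0.40 ± 0.36, adjusted p 0.42).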
